A study of Mus musculus with 8 samples.

Results

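The nuclear receptors Nr4a1, Nr4a2 and Nr4a3 and the zinc finger factors Egr1, Egr2 and Egr3 were followed in bulk RNA-seq of mouse Kupffer cells, the macrophages that live in the liver sinusoids. These 6 genes were chosen by name, out of 32903 genes in the table and 15629 that could be tested. The comparison was between 5 naive libraries, from untreated wild-type mice, and 3 CCl4 libraries, from wild-type mice given carbon tetrachloride in corn oil. The dose was 0.75 mL/kg, repeated 3 times each week over 8 weeks. Carbon tetrachloride injures hepatocytes and, given repeatedly, scars the liver. No group given the oil alone was used here, so the toxin and its vehicle cannot be told apart. The labels give no age, and neither the isolation of the cells nor its duration is given in the sources used here. The CCl4 libraries are numbered 1, 2-4 and 3 in the labels, which do not say whether 2-4 is a pool. Nothing states that the libraries came from separate animals, so every p-value reflects the spread among these libraries only, part of which may be technical.

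Both families are immediate early genes: in a resting cell their transcripts are few, and a stimulus raises them within minutes to hours through factors that are already present. NR4A proteins are orphan nuclear receptors that bind DNA without a known hormone, as single molecules on the NBRE site, as pairs, or, for NR4A1 and NR4A2, with the retinoid X receptor RXR. EGR proteins bind a GC-rich site through zinc fingers, are induced by ERK signalling through serum response factor (SRF) and its ETS partners on CArG boxes, and are restrained by the NAB corepressors. In the macrophage lineage NR4A1 is known for the survival of Ly6C-low monocytes and for limiting inflammatory gene expression, and EGR1 and EGR2 for monocyte and macrophage differentiation.

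The stretches that follow come from the 250 bases before RefSeq starts of these genes and are shown because immediate early genes are known for elements of this kind. They come from RefSeq on GRCm38.p6, whose promoter table held 3 of the 3 Nr4a genes and 1 of the 3 Egr genes (Egr2). Because other transcripts of these genes begin further upstream, the Nr4a1 and Egr2 stretches lie inside the gene spans given below. The Nr4a3 stretch belongs to a start at 48045305 and runs past 48045078, where that gene's span begins. The sequences are written 5′ to 3′ on the gene's strand. Capitals mark the core of the cAMP response element (TGACG, or CGTCA on the other strand) and, in Egr2, the CArG box.
Nr4a1, chr15:101266596-101266845, plus strand: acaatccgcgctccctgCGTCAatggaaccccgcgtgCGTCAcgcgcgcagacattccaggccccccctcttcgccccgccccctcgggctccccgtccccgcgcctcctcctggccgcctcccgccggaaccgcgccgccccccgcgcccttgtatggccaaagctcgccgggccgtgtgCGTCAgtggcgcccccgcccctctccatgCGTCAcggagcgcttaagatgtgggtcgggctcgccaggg
Nr4a2, chr2:57124102-57124131, minus strand: cgggcTGACGgggccgcTGACGcgcttggc
Nr4a3, chr4:48045055-48045107, plus strand: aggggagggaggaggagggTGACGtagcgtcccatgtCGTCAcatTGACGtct
Egr2, chr10:67537792-67537821, plus strand: tcagtCCATATATGGgcagcgaCGTCAcgg

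The 250 bases before each of these starts were searched on both strands. The CRE core TGACG occurred 4 times in the Nr4a1 window, 4 times in the Nr4a2 window and 2 times before the Egr2 start at position 67537869. Among 32851 promoters of the same length, 17.8% held at least 1 such core and 45, or 0.137%, held at least 4. That number of 4 was chosen after the windows had been read. The Nr4a3 window also held 4, but its first core ends on the first base of the gene's span and the others lie inside the gene. The CArG box was found in the Egr2 window, 72 to 63 bases before the start, and in 1.47% of all promoters. The EGR site GCGNGGGCG was found before Nr4a1 and before Nr4a2, and in 4.70% of all promoters. The ETS core CCGGAA was found in the Nr4a1 window and in 12.0% of promoters. The CRE core overlaps the complete element TGACGTCA, which matched in none of the members' windows and in 1.55% of promoters, and the NBRE AAAGGTCA matched in none of them and in 1.34%. A match is a description of the letters and not evidence of a bound site.

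Expression was higher in the CCl4 libraries for 5 of the 6 factors by limma with Benjamini-Hochberg adjustment over all tested genes (adjusted p under 0.05): Nr4a1, Nr4a2, Nr4a3, Egr2 and Egr3. No member was lower. Of all tested genes, 37.8% were called by the same rule, 15.3% as higher and 22.5% as lower. Egr1, the most abundant of the 6, did not pass the test. In 4 members (Nr4a1, Nr4a2, Egr2 and Egr3) every CCl4 library lay above every naive library, as it did for 16.3% of tested genes. All 6 members reached 1 TPM in every library, so none entered the test through its CCl4 values alone. TPM is a share of the library corrected for transcript length, and each log2 fold change was computed from log2(TPM + 1). The median over all tested genes was -0.06.

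**Figure D1:**
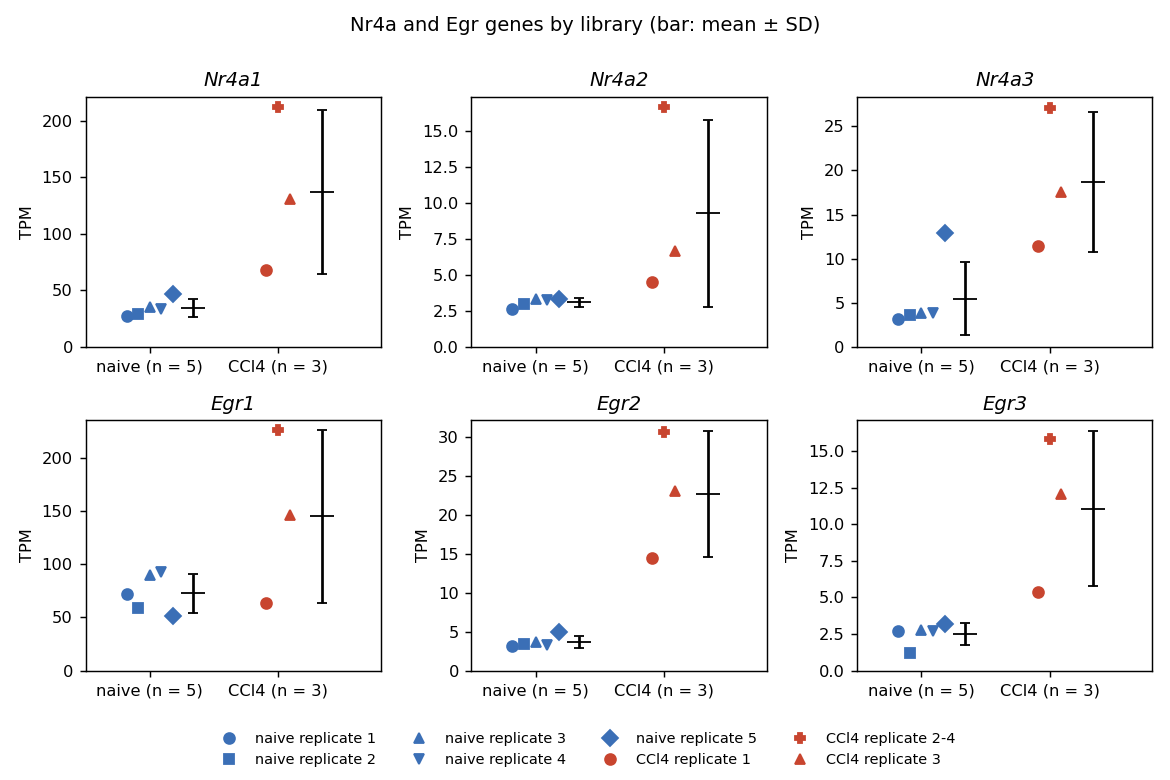
Level of each member in TPM, on a linear axis from 0, with a symbol for each library (5 naive in blue, 3 CCl4 in red) and a black bar for the group's mean ± SD. In Nr4a1, Nr4a2, Egr2 and Egr3 the CCl4 points lie above all naive points, while in Nr4a3 naive library 5 (12.9 TPM) and in Egr1 several naive libraries lie within the CCl4 range.

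Nr4a1 (gene ID 15370, chromosome 15, 101253902 to 101274795 on GRCm38), the receptor that Ly6C-low monocytes depend on, measured 27.0, 29.1, 34.9, 33.2 and 47.0 TPM in naive libraries 1 to 5. It measured 67.9, 212.3 and 130.8 TPM in CCl4 libraries 1, 2-4 and 3. Every CCl4 library was above every naive one, and library 2-4 was the highest. The means were 34.3 ± 7.78 TPM (SD, n = 5) and 137 ± 72.4 TPM (SD, n = 3), a 4.00-fold ratio. The log2 fold change was 1.85 (SE 0.312, 95% interval 1.16 to 2.54) with an adjusted p of 0.000871 by limma. The exact two-sided permutation test gave p = 0.0357, the smallest that 56 splits of 5 against 3 libraries allow. Nr4a1 moved from above 80.2% of tested genes in the naive mean to above 96.5% in the CCl4 mean.

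Nr4a2 (chromosome 2, 57106830 to 57124003), the family member known for dopaminergic neurons and for restraint of inflammatory genes in macrophages and microglia, was low in naive libraries at 2.62, 2.98, 3.33, 3.27 and 3.30 TPM. The CCl4 libraries measured 4.53, 16.7 and 6.65 TPM in the order 1, 2-4 and 3. The groups did not overlap, but libraries 1 and 3 lay close above the naive range and library 2-4 well above it. The means were 3.10 ± 0.304 TPM (SD, n = 5) and 9.28 ± 6.48 TPM (SD, n = 3). The log2 fold change was 1.15 (SE 0.313, 95% interval 0.46 to 1.84, limma adjusted p 0.0141; exact permutation p 0.0357). Without CCl4 library 2-4 it was 0.67 and still passed (limma adjusted p 0.026). With the replicate number as a further term in the fit it was 0.72 and lost the call (limma adjusted p 0.0655). Matching transcripts to the gene table with their version kept 2 of the 4 deposited Nr4a2 transcripts. On that part of the gene, Nr4a2 had a log2 fold change of 0.10 and lost the call (limma adjusted p 0.777).

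Nr4a3 (chromosome 4, 48045078 to 48086447), which shares targets and functions with Nr4a1, measured 3.20, 3.58, 3.83 and 3.82 TPM in naive libraries 1 to 4 and 12.9 TPM in naive library 5. The CCl4 libraries measured 11.4, 27.1 and 17.6 TPM. Naive library 5 was thus above CCl4 library 1, and the groups overlapped through that library. The means were 5.47 ± 4.18 TPM (SD, n = 5) and 18.7 ± 7.91 TPM (SD, n = 3), with a log2 fold change of 1.70 (SE 0.397, 95% interval 0.82 to 2.58, limma adjusted p 0.00634). The exact permutation p was 0.0714. Without naive library 5 the log2 fold change was 2.02 (limma adjusted p 8.81e-05).

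Egr1 (chromosome 18, 34861207 to 34864956), the family member most rapidly induced through ERK and SRF in many cells, measured 71.7, 58.8, 89.9, 92.9 and 51.6 TPM in naive libraries 1 to 5. It measured 63.6, 226.4 and 146.2 TPM in CCl4 libraries 1, 2-4 and 3. CCl4 library 1 lay within the naive range and the other two above it. The means were 73.0 ± 18.4 TPM (SD, n = 5) and 145 ± 81.4 TPM (SD, n = 3). The log2 fold change of 0.84 (SE 0.353, 95% interval 0.06 to 1.62) did not pass after adjustment (limma adjusted p 0.0854; exact permutation p 0.143). Without CCl4 library 1 it was 1.34 and passed (limma adjusted p 0.00326), and without CCl4 library 2-4 it was 0.43.

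Egr2 (chromosome 10, 67534469 to 67542188), known in macrophages for differentiation and for alternative activation by interleukin-4, had the highest estimated fold change of the 6, although its interval overlapped those of Nr4a1, Nr4a2, Nr4a3 and Egr3, and with a pseudocount of 5 it was below Nr4a1 (1.64 against 1.74). It measured 3.10, 3.35, 3.67, 3.23 and 4.98 TPM in the naive libraries. The CCl4 libraries measured 14.5, 30.6 and 23.1 TPM, each at least 2-fold above the highest naive library. The means were 3.67 ± 0.763 TPM (SD, n = 5) and 22.7 ± 8.07 TPM (SD, n = 3), a 6.20-fold ratio. The log2 fold change was 2.30 (SE 0.234, 95% interval 1.78 to 2.82, limma adjusted p 2.74e-05; exact permutation p 0.0357). Of the tested genes, 0.832% had a larger log2 fold change.

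Egr3 (chromosome 14, 70077317 to 70082613), known with Egr2 as a limiter of T cell activation downstream of NFAT, measured 2.69, 1.22, 2.75, 2.71 and 3.19 TPM in the naive libraries. The CCl4 libraries measured 5.38, 15.8 and 12.0 TPM, all above the naive range, with library 1 nearest to it. The means were 2.51 ± 0.749 TPM (SD, n = 5) and 11.1 ± 5.28 TPM (SD, n = 3). The log2 fold change was 1.70 (SE 0.315, 95% interval 1.01 to 2.40, limma adjusted p 0.00155; exact permutation p 0.0357). The intervals of Egr3, Nr4a1 and Nr4a3 cover much the same range, so the order of their fold changes was not resolved. The fourth family member, Egr4, stayed at or below 0.760 TPM in every library and was not tested.

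**Figure D2:**
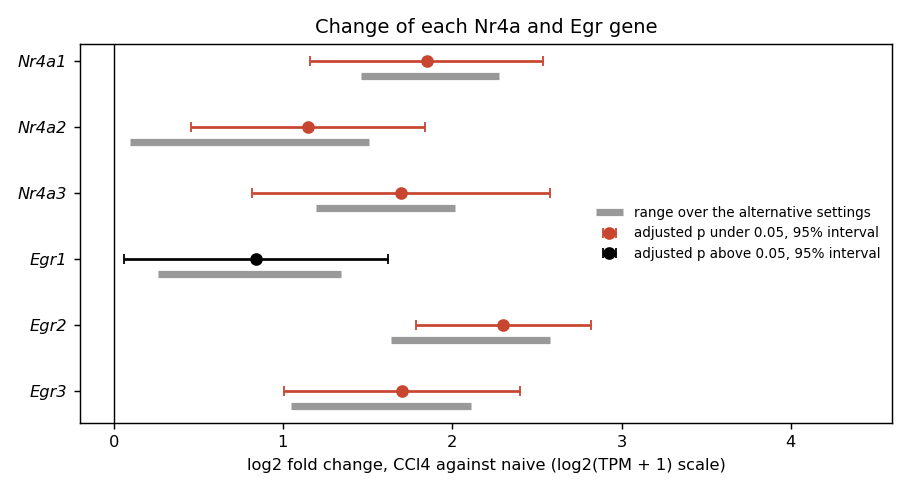
Log2 fold change of each member, CCl4 over naive on the log2(TPM + 1) scale, with points for the limma estimate, thin bars for the 95% interval and grey bars for the range over the alternative settings; Egr1, not called, is black. Egr2 has the highest estimate (2.30) and Egr1 the lowest (0.84), and their intervals (1.78 to 2.82 and 0.06 to 1.62) do not overlap. The intervals of members next to each other when ranked by estimate do overlap.

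The levels, per transcript length, were ordered within each group. In naive libraries the order of means was Egr1, Nr4a1, Nr4a3, Egr2, Nr4a2 and Egr3. Egr1 exceeded Nr4a1 in 5 of 5 naive libraries, by 38.7 ± 22.3 TPM (SD), and Nr4a1 exceeded Nr4a3 in 5 of 5. Nr4a3 exceeded Egr2 in 5 of 5 naive libraries as well, by 1.81 ± 3.45 TPM (SD), with most of that difference in library 5. Egr2 exceeded Nr4a2 in 4 of 5, by 0.567 ± 0.654 TPM, and Nr4a2 exceeded Egr3 in 4 of 5, by 0.586 ± 0.713 TPM (SD), differences smaller than their spread. In CCl4 libraries the order was Egr1, Nr4a1, Egr2, Nr4a3, Egr3 and Nr4a2. Egr1 and Nr4a1 then differed by less than their spread, 8.41 ± 11.0 TPM (SD, n = 3), with Egr1 higher in 2 of 3 libraries. Egr2 exceeded Nr4a3 in 3 of 3 CCl4 libraries, by 4.05 ± 1.25 TPM, and Nr4a3 exceeded Egr3 in 3 of 3, by 7.61 ± 3.19 TPM.

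Summed over a family, Nr4a transcripts came to 42.8 ± 12.0 TPM (SD, n = 5) without treatment and 165 ± 86.6 TPM (SD, n = 3) after CCl4. Nr4a1 made up 80.7% ± 3.62 of that sum in naive and 82.8% ± 1.69 in CCl4 libraries. Egr1, Egr2 and Egr3 together came to 79.1 ± 18.1 TPM without treatment and 179 ± 94.7 TPM after CCl4. Within this sum Egr1 held 91.8% ± 3.11 in naive and 79.9% ± 3.46 in CCl4 libraries, and Egr2 held 4.94% ± 2.04 and 13.8% ± 3.21. Egr1 thus remained the most abundant Egr transcript in both groups.

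Ratios of TPM + 1 between members of the same family were formed within each library, for 6 pairs. The log2 ratio of Egr1 to Egr2 went from 3.96 ± 0.528 (SD, n = 5, naive) to 2.51 ± 0.405 (SD, n = 3, CCl4), a difference of -1.46 (exact permutation p 0.0357, adjusted over the 6 pairs 0.107). Egr1 to Egr3 differed by -0.86, from 4.39 ± 0.448 to 3.53 ± 0.212 (exact permutation p 0.0714, adjusted 0.143). Nr4a1 to Nr4a2 differed by 0.70, from 3.08 ± 0.229 to 3.78 ± 0.285 (exact permutation p 0.0357, adjusted 0.107). Egr2 to Egr3 differed by 0.60, Nr4a1 to Nr4a3 by 0.15 and Nr4a2 to Nr4a3 by -0.55 (exact permutation adjusted p 0.161, 0.821 and 0.343). No pair passed after adjustment, and none could have unless several pairs reached the smallest p of this design. Unequal change of the members of a family was therefore not shown at this number of libraries, nor was equal change.

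**Figure D3:**
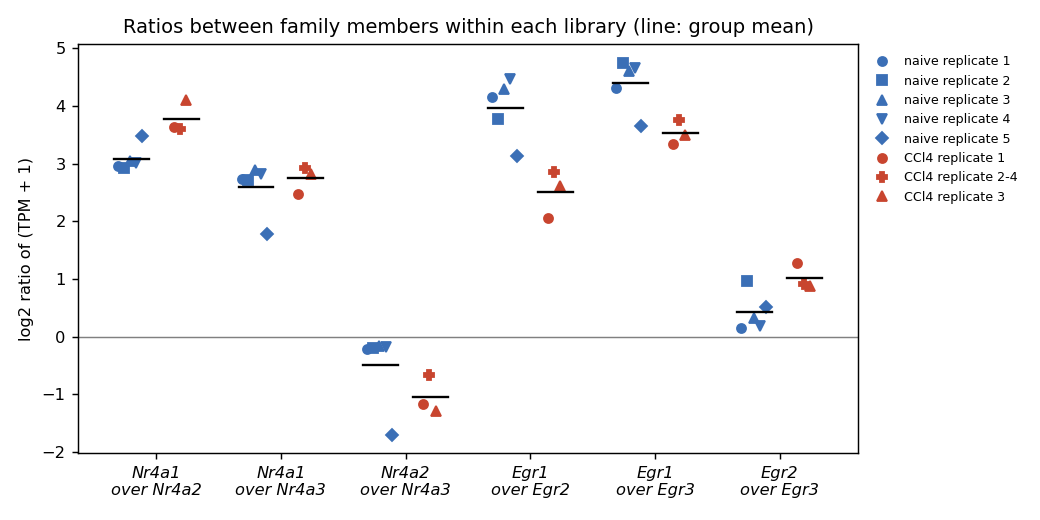
Log2 ratio of TPM + 1 within each library for the 6 pairs of members of one family, with points for libraries and bars for group means. The CCl4 points of Egr1 over Egr2 lie below all naive points and those of Nr4a1 over Nr4a2 above them, while naive library 5 stands apart in the ratios that hold Nr4a3 (1.78 for Nr4a1 over Nr4a3).

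All 6 members had the same order in the CCl4 group, highest in library 2-4, then 3, then 1. That order was common: 19.4% of all tested genes and 23.0% of genes higher in CCl4 had it. Some cell type sums were also highest in library 2-4, and others were not. Summed over 10 dendritic cell markers, CCl4 libraries 2-4, 3 and 1 measured 761, 596 and 512 TPM, and over 15 sinusoidal endothelium markers 587, 406 and 247 TPM. Summed T and NK cell markers were 263 TPM in library 2-4 against 78.0 and 86.0 TPM in libraries 3 and 1, and B and plasma cell markers 186 TPM against 93.8 and 92.5 TPM. Summed monocyte markers had the reverse order, with 2689, 3624 and 6033 TPM in libraries 2-4, 3 and 1. Most of that sum was Lyz2, with 1843, 2806 and 4858 TPM in these libraries. Cx3cr1 had the order of the sum (143.8, 146.5 and 319.9 TPM), but Ccr2 did not (264.4, 181.5 and 307.3 TPM). Hepatocyte markers were highest in library 1, at 967 TPM, against 409.3 TPM in library 2-4 and 257.5 TPM in library 3. The part of these cells in the members' order was not tested.

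Among naive libraries, number 5 was the highest for Nr4a1, Nr4a3, Egr2 and Egr3 and the lowest for Egr1. Library 5 was the highest naive library for 17.2% of tested genes and for 48.3% of those higher in CCl4. It also held 101 TPM of Itgax, an integrin of dendritic cells and macrophages, against 19.1 to 25.1 TPM in the other naive libraries, and 38.3 TPM of Ccr2, the chemokine receptor of inflammatory monocytes, against 11.6 to 16.9 TPM. Its summed sinusoidal endothelium markers were 5782 TPM against 8283 to 11280 TPM, and its summed immediate early transcription factors other than the members were 2013 TPM against 2309 to 2783 TPM. Its summed erythroid and platelet markers were 257 TPM, against 3634 to 6802 TPM in the other naive libraries and 98.9 to 189 TPM in CCl4 libraries. Their part in the level of Nr4a3 in this library was not tested.

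Clec4f, a lectin receptor that defines mouse Kupffer cells, measured 1397 ± 416 TPM (SD, n = 5) without treatment and 77.7 ± 11.0 TPM (SD, n = 3) after CCl4, and 11 of 12 Kupffer cell markers were lower. Their sum ranged from 3324 to 6474 TPM without treatment and from 826 to 1013 TPM after CCl4. Monocyte markers were higher for 6 of 11 tested and lower for 1 (S100a9), with sums of 661 to 1314 and 2689 to 6033 TPM. Dendritic cell markers were higher for 5 of 10 and lower for 2, with sums of 227 to 373 and 512 to 761 TPM. The lower 2 were Zbtb46 and Clec9a, with log2 fold changes of -1.38 and -1.44 (limma adjusted p 0.000655 and 0.00167). All 15 sinusoidal endothelium markers were lower, with sums of 5782 to 11280 and 247 to 587 TPM, and 8 of 12 hepatocyte markers were lower. Erythroid and platelet markers were lower for 6 of 8 tested, with sums of 257 to 6802 and 98.9 to 189 TPM. Neutrophil markers summed to at most 19.4 TPM in any library, and Ly6g was listed at 0 throughout. In bulk RNA, fewer cells of a type and less RNA per cell cannot be told apart. The part of these other cells in the members' change was not tested.

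The deposited transcripts showed which annotated form carried each member. For Nr4a1, the predicted transcript XM_006520459 held 79.5% of the TPM in naive and 85.6% in CCl4 libraries, and NM_010444, whose start follows the printed stretch, held 4.93% and 5.94%. For Nr4a2, the predicted XM_011239034 had a mean of 1.75 TPM without treatment and 7.77 TPM after CCl4, while NM_001139509, the form at the printed start, had 1.21 TPM in both groups. As assigned by the software, the difference in mean Nr4a2 lay in the predicted form. The equal means of NM_001139509 hid uneven values, with 1.02e-06, 2.07 and 1.56 TPM in CCl4 libraries 1, 2-4 and 3. Nr4a3 was shared by NM_001307989 (41.6% and 47.0%), XM_006537656 (35.6% and 23.4%) and NM_015743 (21.5% and 28.0%). Egr2 was almost entirely NM_010118, with 95.1% and 98.8%, Egr3 mainly NM_001289925, with 82.3% and 84.2%, and Egr1 had a single transcript. Assignment among transcripts that share exons was an estimate by the authors' software.

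The first exon region of Nr4a2 overlaps the model LOC105244150, which had 5.20 ± 1.57 TPM (SD, n = 5) without treatment and 11.1 ± 3.41 TPM (SD, n = 3) after CCl4 (limma adjusted p 0.0126). Egr2 overlaps the long noncoding Gm32255, which was at or below 0.396 TPM. Whether strand was used in the quantification is not given in the sources used here, so Nr4a2 in particular is uncertain to the extent that its reads were shared. The nearest protein-coding gene on each side of each member was also read. Of these 12 neighbours 9 were tested and 1 was called, Bin3 beside Egr3, with a log2 fold change of 0.59 (limma adjusted p 0.0218).

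Partners of the members were read next, with each rise or fall given as a log2 fold change here and in the gene groups after it. The NAB corepressors bind EGR proteins and shut their targets down, and NAB2 is itself induced by EGR1. Nab2 rose from 22.7 ± 5.78 TPM (SD, n = 5) to 39.7 ± 2.50 TPM (SD, n = 3; log2 fold change 0.81, limma adjusted p 0.00557), while Nab1 had 30.1 ± 3.69 and 28.0 ± 2.92 TPM (limma adjusted p 0.640). Of 10 tested RXRs and other nuclear receptors, 3 were higher and 4 lower, with a median log2 fold change of -0.14. Rxra, an RXR that pairs with Nr4a1 and Nr4a2, fell by 1.33 on the log2 scale, from 102 ± 22.9 to 39.6 ± 8.90 TPM (limma adjusted p 0.000479). Rxrb, the other RXR tested, rose by 0.39 (limma adjusted p 0.0348). Ppard and Pparg, also higher, rose by 0.61 and 0.93 (limma adjusted p 0.00593 and 0.00934). Nr1h3, which encodes LXR alpha and maintains Kupffer cell identity, fell by 1.08 (limma adjusted p 0.0011). Nr2f2, a receptor of venous endothelium, fell by 3.54 (limma adjusted p 8.52e-06) and Rora by 1.06 (limma adjusted p 0.00286). The sinusoidal endothelium markers fell alongside Nr2f2, and their part in it was not tested.

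The lists for the ERK cascade and for SRF and its partners had shares of higher and lower genes near those of all tested genes, 15.3% and 22.5%. Of 18 genes of the ERK cascade 3 were higher and 5 lower, with a median log2 fold change of -0.09, and under quantile normalization 5 were higher. Mapk3, a kinase of this cascade, had a log2 fold change of -0.19 (limma adjusted p 0.502). Map2k1, the kinase MEK1, rose by 0.79 and the ribosomal S6 kinase Rps6ka1 by 1.67 (limma adjusted p 0.00161 and 0.000172), while its relative Rps6ka2 fell by 2.21 and the growth factor receptor Egfr fell by 1.41 (limma adjusted p 0.000105 and 0.000742). Of 6 tested SRF and ternary complex genes, 1 was higher (the SRF coactivator Mrtfa, 1.17, limma adjusted p 0.000584) and 1 lower (the ETS factor Elk3, -1.78, limma adjusted p 0.000145). The higher count was 2 with no filter, under quantile normalization and when rescaled to protein-coding genes, and the lower count was 2 under that rescaling and without CCl4 library 2-4. Srf itself had 18.8 ± 1.89 TPM without treatment and 21.9 ± 1.89 TPM after CCl4 (limma adjusted p 0.244). These are transcript levels, and phosphorylation was not measured.

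The next list held inhibitors of ERK and related kinase signalling, not all of which ERK signalling itself induces. More of them were lower than higher, 7 against 2 of 13, with a median log2 fold change of -0.59 beside -0.06 for all tested genes. Spry4 fell by 3.45, Spry1 by 2.34, the ERK phosphatase Dusp4 by 2.02 and Spred2 by 1.19 (limma adjusted p 1.59e-06, 1.21e-05, 0.000146 and 0.000193). Dusp1 and Dusp2, phosphatases that are also immediate early genes, were the 2 that were higher, by 0.62 and 0.66 (limma adjusted p 0.00554 and 0.014). Without CCl4 library 2-4 only 1 of them passed. In 7 of the 13 genes the CCl4 libraries had the members' order, as did 13 of 15 endothelium markers and 19.4% of all tested genes. The part of endothelium in the lower genes was not tested.

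Of 13 CREB genes and coactivators 3 were higher and none lower, with a median log2 fold change of 0.06, and without CCl4 library 1 a lower one was called. Sik1, a kinase that CREB induces and that restrains CREB coactivators, rose by 1.95, from 20.6 ± 4.15 to 82.5 ± 16.9 TPM (limma adjusted p 1.73e-05). The acetyltransferase Ep300 rose by 0.79 and Atf1 by 0.43 (limma adjusted p 0.000746 and 0.0486). Creb1 had 18.9 ± 2.46 and 20.8 ± 2.67 TPM (limma adjusted p 0.557). Among 14 genes of calcineurin, NFAT and MEF2 signalling, 2 were higher and 2 lower, with a median of -0.01. Under quantile normalization and under median-of-ratios rescaling 5 were higher. Nfatc2, an NFAT factor upstream of Egr2 and Egr3 in T cells, rose by 2.34, from 6.85 ± 3.74 to 36.2 ± 1.20 TPM, and Nfatc1 by 0.68 (limma adjusted p 8.47e-05 and 0.00135). Hdac7, a MEF2 corepressor of endothelium and lymphocytes, fell by 2.30 and the calcineurin inhibitor Rcan1 by 1.13 (limma adjusted p 4.76e-05 and 0.00011).

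**Figure D4:**
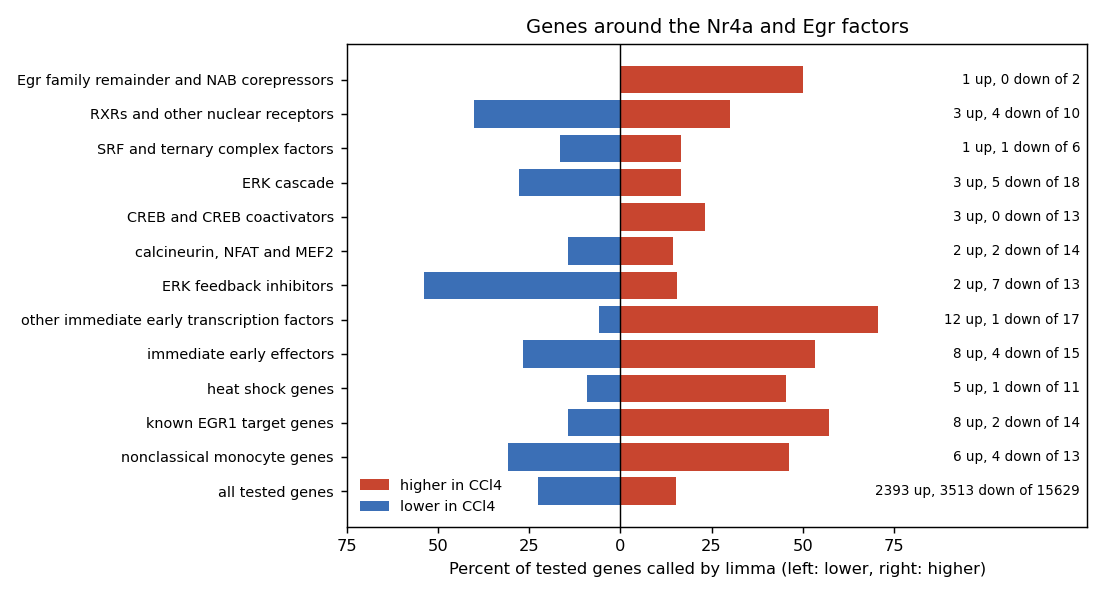
Share of the tested genes of each list that limma called higher (right) or lower (left) in CCl4, in percent, with the counts at the right edge and all tested genes in the last row. Other immediate early transcription factors have 12 of 17 higher and the list labelled ERK feedback inhibitors 7 of 13 lower, beside 15.3% and 22.5% of all tested genes.

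Immediate early factors outside the 2 families were more often higher than lower. Of 17 other immediate early transcription factors 12 were higher and 1 lower, with a median log2 fold change of 0.93, and 9 had the members' order among the CCl4 libraries. Atf3, a stress-induced bZIP factor, rose by 2.82, from 60.6 ± 10.5 to 448 ± 152 TPM, and Fos, a subunit of AP-1, by 1.20, from 390 ± 60.2 to 892 ± 57.9 TPM (limma adjusted p 6.31e-06 and 0.000196). Ier5 rose by 1.35 and the antiproliferative Btg2 by 1.34 (limma adjusted p 3.57e-05 and 9.43e-05). Myc and Ier3 had log2 fold changes of 0.04 and 0.13 (limma adjusted p 0.873 and 0.685). Klf2, a factor of quiescent endothelium and myeloid cells, was the 1 lower gene (-0.58, limma adjusted p 0.0277), and it lost the call with no filter and without naive library 3, naive library 4, CCl4 library 1 or CCl4 library 3.

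Immediate early effectors were more divided, with 8 of 15 higher and 4 lower and a median of 0.56. Zfp36, which degrades cytokine mRNA, rose by 1.66, the prostaglandin synthase Ptgs2 by 2.03 and the NF-kB inhibitor Nfkbia by 0.85, while the kinase Plk2 fell by 2.15 (limma adjusted p 1.28e-05, 0.000143, 0.00064 and 1.6e-05). Without CCl4 library 2-4, 5 were higher. Heat shock genes that tissue dissociation is known to raise were higher for 5 of 11 and lower for 1, with a median of 0.58, and their sum was 1502 to 2557 TPM in naive libraries and 2344, 3351 and 3456 TPM in CCl4 libraries 1, 2-4 and 3. Hsp90aa1 rose by 0.89, Hspe1 by 0.69 and Hspa1a by 1.50, and Hspb1 fell by 1.42 (limma adjusted p 0.0035, 0.00601, 0.0277 and 0.0096). Hspa1a shares nearly all its sequence with Hspa1b, so their split is uncertain. The count of 5 higher was 3 with no filter and 3 without naive library 1, 8 without CCl4 library 1, 2 without library 2-4 and 2 without library 3. The part of the heat shock response or of cell isolation in the members' change was not tested.

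**Figure D5:**
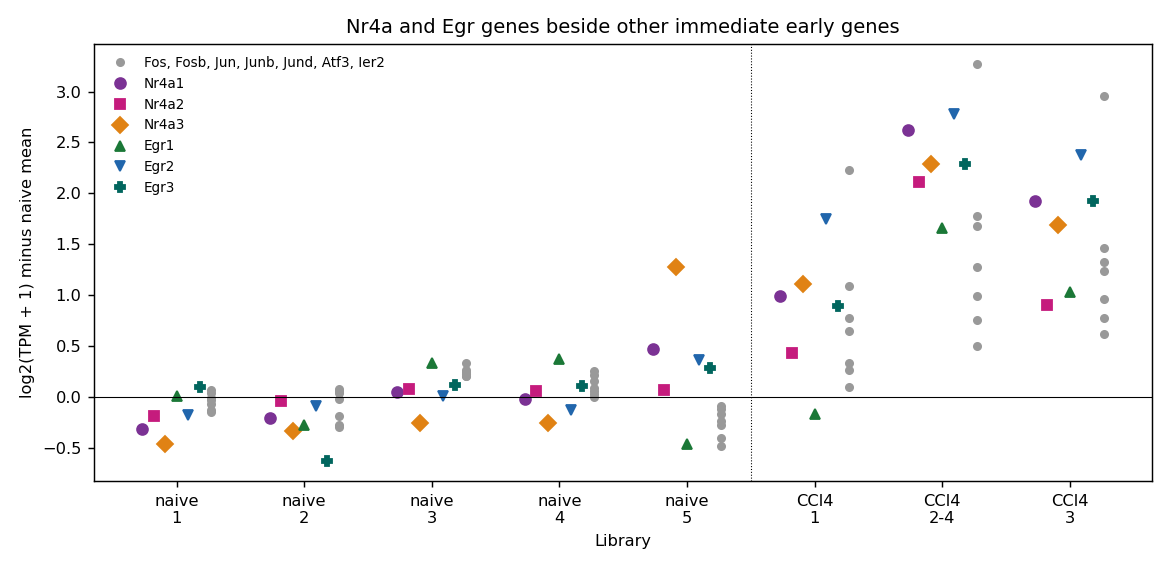
Level of each member in every library as log2(TPM + 1) minus its naive mean, with colored symbols for the members and grey points for Fos, Fosb, Jun, Junb, Jund, Atf3 and Ier2, chosen from the list of other immediate early factors. The members are highest in CCl4 library 2-4, Nr4a3 in naive library 5 stands with the CCl4 libraries, and Egr1 in CCl4 library 1 (63.6 TPM) does not stand above the naive libraries.

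Genes known as EGR1 targets, and genes of a monocyte type that needs Nr4a1, were counted last. Of 14 tested genes known as EGR1 targets 8 were higher and 2 lower, with a median log2 fold change of 0.71. The stress cytokine Gdf15 rose by 2.41, from 3.13 ± 0.660 to 22.0 ± 8.83 TPM, the growth factor chain Pdgfb by 1.60 and the cytokine Tnf by 2.23 (limma adjusted p 3.73e-05, 8.23e-05 and 9.85e-05), and Nab2 is a target as well. Vegfa and Icam1 were the 2 lower genes (-0.82 and -0.77, limma adjusted p 0.0221 and 0.0349). No lower gene was called with no filter or without naive library 2, CCl4 library 1 or CCl4 library 3. The count was 1 without naive library 3, under quantile normalization and under median-of-ratios rescaling. Of 13 genes of the Ly6C-low monocytes that need Nr4a1, 6 were higher and 4 lower, with a median of 0.47. Cx3cr1, their fractalkine receptor, rose by 3.62, from 16.7 ± 11.7 to 203 ± 101 TPM, and Spn, which encodes CD43, by 1.48 (limma adjusted p 6.51e-05 and 0.000833). The lipid-handling genes Fabp4 and Cd36, which endothelium also expresses, fell by 2.95 and 2.19 (limma adjusted p 2.87e-05 and 0.000548). The other lower genes of this list, Treml4 and Adgre4, fell by 1.06 and 0.73 (limma adjusted p 0.00461 and 0.0391). Fcgr4 had a log2 fold change of -0.21 and was not called (limma adjusted p 0.616). Cx3cr1 is itself one of the monocyte markers, of which 6 of 11 were higher, and their part in it was not tested.

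The genes nearest to each member in pattern were found by the root mean square difference of log2(TPM + 1), centred on each gene's mean, over the 8 libraries, among 7939 genes with a mean of at least 10 TPM. For Egr2 they included the prostaglandin E2 receptor Ptger4 (0.155) and the proapoptotic Pmaip1 (0.179), against a median of 1.21 for all candidates. For Egr1 and Nr4a2 the lists shared Fosb (0.200 and 0.212) and Csrnp1 (0.224 for each), both immediate early genes. Arhgdia (0.199) was the nearest to Nr4a2, and Rtn2 (0.222) was among those nearest to Egr1. For Nr4a1 they were H2-DMb2 (0.182), whose reads may be shared with its near copy H2-DMb1, Tcof1 (0.217) and the kinase Pim1 (0.249). For Nr4a3 they were the integrin Itgb7 (0.205), the mitochondrial folate enzyme Mthfd2 (0.208) and Gm40820 (0.248). For Egr3 they were Tnfaip3 (0.284), Nfkbiz (0.299) and Pim1 (0.300), of which the first encodes the NF-kB inhibitor A20. Between members, Nr4a1 and Egr3 were nearest at 0.251 and Nr4a3 and Egr1 farthest at 0.837. Nr4a1 lay nearer to Egr3 and to Egr2 (0.279) than to Nr4a3 (0.352) or Nr4a2 (0.401), so the pattern did not follow the families. These distances describe 8 libraries that fall into 2 groups, and carry no test.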

How the data were processed

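RNA of Kupffer cells was profiled in 8 libraries, 5 naive and 3 CCl4. Per the file headers, the authors deposited TPM for RefSeq transcripts. The tool kallisto 0.42.4 and the build GRCm38 are listed, per the submitters' processing notes. The labels' protocols give a directional library kit on total RNA, and how reads were indexed or trimmed is not given in the sources used here. Since TPM hold no sequencing depth, the depth and counting error are unknown and precision comes from the spread between libraries.

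Of 107384 transcripts, 86722 were matched to a gene of the RefSeq table of GRCm38.p6 by accession without version and summed to 32903 genes. The rest, with 6.06% to 7.58% of the TPM, were left out. Protein-coding genes held 45.5% to 56.0% of the TPM, and 14059 to 15063 genes reached 1 TPM in a library.

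The test covered the 15629 genes that reached 1 TPM in 3 or more libraries. It was limma 3.58.1 in R 4.3.3 on log2(TPM + 1), a pseudocount of 1, with trended eBayes and a group term alone. P-values were adjusted by Benjamini-Hochberg and the threshold was 0.05. This called 5906 genes (37.8%), 2393 higher and 3513 lower. Quantile normalization gave 4011 higher and 3086 lower, and moved the median log2 fold change of all genes from -0.06 to 0.11. Single members and ratios were also tested by a two-sided exact permutation test over 56 splits.

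The members and lists were chosen with earlier results of these data known. Named genes are the 6 members, up to 4 called genes of each list by adjusted p, the 3 nearest in pattern to each member and the 2 most abundant markers of each cell type, of which a few are printed. Some genes taken by this rule are not reported here. Mapk3, Srf, Creb1, Nab1, Dusp1, Dusp2, Klf2, Myc, Ier3, Vegfa, Icam1, Treml4, Adgre4 and Fcgr4 were named with their values in view. So were Rxrb, Ppard, Pparg, Clec9a and the genes of the pattern plot. The settings also tried were pseudocounts of 0.1 and 5, other filters and scalings, library weights, robust eBayes, a replicate block, matching with version, the most abundant transcript and omission of each library.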

Additional observations from a re-analysis of the deposited data

Results flagged for a closer look

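Some values stood apart from the other naive libraries by Dixon's test at the 95% level, which chance passes in about 1 of 20 groups. Nr4a3 in naive library 5 (12.94 TPM) was far above the other 4, and Egr3 in naive library 2 (1.223 TPM) was far below them. In naive library 5 the log2 ratio of Nr4a1 to Nr4a2 was high (3.482), and the ratios of Nr4a1 to Nr4a3 (1.783) and of Nr4a2 to Nr4a3 (-1.699) were low. Genes taken by rule from the lists other than cell type markers, and from the pattern search, were read as well. Among these, naive library 5 stood apart as high for Sik1 (27.88 TPM), Nfatc2 (13.5 TPM), Cx3cr1 (37.34 TPM), Tcof1 (47.65 TPM), Itgb7 (85.56 TPM), Mthfd2 (15.76 TPM) and Pmaip1 (32.28 TPM). It stood apart as low for Cd36 (121.7 TPM). The lists of cell type markers are not covered here. Tcof1, Itgb7, Mthfd2 and Pmaip1 had been chosen for a pattern like that of a member over all libraries, naive library 5 included, so their values there follow from that choice. Rcan1 stood apart in naive library 2 (98.57 TPM). Over all tested genes, naive library 5 had a correlation of 0.943 to 0.951 with the other naive libraries, across genes, and of 0.878 to 0.888 with the CCl4 libraries, for which the other naive libraries had 0.813 to 0.846.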

How the results depend on the processing

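Nr4a1, Nr4a3 and Egr2 passed in each of 20 alternatives, with log2 fold changes of 1.46 to 2.28, 1.20 to 2.02 and 1.64 to 2.58, and Egr3 in each of 19 (1.05 to 2.11). Nr4a2 passed in 17 of 19 and had 0.72 with a replicate block (limma adjusted p 0.0655) and 0.10 when transcripts were matched with version (limma adjusted p 0.777), where 3 members were higher and Egr3 was not tested. A filter of 5 TPM left Nr4a2 untested. Egr1 passed in 1 of 20, without CCl4 replicate 1 (limma adjusted p 0.00326), and ranged from 0.43 to 1.34 as each library was left out. The block used the 2 shared replicate numbers, 1 and 3; it gave 4 members higher and 0 lower. Same-numbered libraries had correlations of 0.0772 and -0.0414 between their deviations. The labels do not say whether they share a batch, and 2 correlations cannot decide it. Among the ratios, a pseudocount of 0.1 gave Nr4a1 over Nr4a2 0.54, Nr4a1 over Nr4a3 -0.018 and Egr1 over Egr3 -1.18. A pseudocount of 5 gave Egr1 over Egr2 -0.83 and Egr2 over Egr3 0.59. The cause was not tested. Matching with version gave no ratio with Egr3, since the 1 Egr3 transcript it kept was listed at 0 in every library. Leaving out one library at a time, 5 to 6 members were higher, and with so few libraries the exact test of a ratio cannot pass. Counts of single lists moved by over 1.5 times in 32 of 416 cases. The depth is unknown, so no limit of detection could be given for the low members.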
